A study of Homo sapiens with 4 samples.

Results

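The ERBB receptors and their EGF-like ligands were followed through RNA sequencing of LCC9 cells after exposure to A7. They comprised 10 genes, chosen by symbol from the 23605 genes of the tables: the 4 receptors EGFR, ERBB2, ERBB3 and ERBB4, and the 6 ligands AREG, EREG, HBEGF, TGFA, NRG1 and BTC. LCC9 is a tamoxifen-resistant breast cancer line derived from MCF-7, and its labels state that it expresses estrogen receptor alpha in wild-type form. The groups were A7, which the labels call a BRCA1 mimetic (2 libraries), and the DMSO vehicle (2 libraries), each applied for 24 h. All cells were grown in phenol red-free medium with 5% charcoal-stripped serum, and the labels name no added EGF-like ligand. A7 is given by its code name alone, because its catalogue number differs between the labels. Whether libraries of 1 group stem from different cultures is not stated, and the spread behind the p-values may therefore be technical.

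ERBB receptors are tyrosine kinases at the cell surface that act as pairs. EGF-like ligands are made as membrane-bound precursors and are cut free by proteases of the ADAM family. AREG, the product amphiregulin, and TGFA bind EGFR, whereas HBEGF, BTC and EREG bind EGFR and ERBB4, and the neuregulin NRG1 binds ERBB3 and ERBB4. ERBB2 has no known ligand of its own and serves as a partner, and ERBB3 has a weak kinase and signals through its partners, above all to PI3K. In breast epithelium AREG is a known estrogen-induced gene.

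The libraries were shallow. From the steps between low values, the A7 libraries held roughly 4400000 and 3300000 fragments and the vehicle libraries 2400000 and 2300000. Values are given as scaled FPKM, which are fragments relative to transcript length and library size, divided by 1 factor per library. Comparisons of level between genes assume even coverage and amplification of their transcripts, which was not checked. All 8 luminal markers reached a mean FPKM of 1. Of the 6 basal markers, KRT5, KRT14 and KRT17 were listed at 0 in every library, and the 6 together summed to 12.3 and 12.6 scaled FPKM with A7 and 14.3 and 16.2 with vehicle. Most of this sum was ACTA2, with 11.1 and 11.3 with A7 and 13.7 and 14.6 with vehicle, and TP63 had 0.942 and 0.793 with A7 and 0.547 and 1.46 with vehicle. Among the immune markers, PTPRC, CD3E and CD14 were listed at 0 in every library, and CD68 had 3.47 and 4.15 with A7 and 4.11 and 4.15 with vehicle. The 4 endothelial markers summed to less than 0.1 in every library. The 6 fibroblast markers summed to 11.0 and 0.963 scaled FPKM in A7 replicates 1 and 2 and to 0.416 and 0.421 in the vehicle libraries. DCN accounted for 8.40 of this sum in A7 replicate 1. The part of these transcripts in the results below was not tested, and values without A7 replicate 1 are given for the 4 tested genes of the family.

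Of the 10 genes 4 reached the minimum for testing, a mean FPKM of 1 over the 4 libraries. They were ERBB3, ERBB2, AREG and TGFA. Both ligands had lower and both receptors higher levels in the A7 libraries, and the groups did not overlap for any of the 4. ERBB2 averaged 1.87 scaled FPKM with A7 and 0.959 with vehicle, and TGFA 0.942 and 1.77. Each thus lay above 1 only in the group where it was higher, and its place among the tested genes rests on that group. None of the differences passed limma's test at an adjusted p of 0.05, a threshold that 0.0223% of the 8952 tested genes passed (0.0112% with A7 higher and 0.0112% with A7 lower). At an unadjusted limma p of 0.05, AREG and ERBB3 passed, and 5.76% of all tested genes did so (2.21% with A7 higher, 3.55% with A7 lower). Groups did not overlap for 36.9% of all tested genes (18.3% with A7 higher, 18.6% with A7 lower). Since the family was chosen with earlier results of these libraries known, these counts are a description.

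AREG was the most abundant ligand. It had 10.5 and 9.80 scaled FPKM in the A7 libraries, against 19.5 and 16.0 in the vehicle libraries. Both A7 values lay below both vehicle values, and the A7 libraries differed from each other by less than the vehicle libraries did. The means were 10.1 ± 0.48 with A7 and 17.8 ± 2.5 with vehicle (SD, n = 2 each), 1.75-fold lower with A7. On the scale of log2(scaled FPKM + 1), on which all differences below are given, the difference was -0.75 (SE 0.17, 95% interval -1.16 to -0.33). The limma adjusted p was 0.667 and the unadjusted p 0.00452, which ranked AREG at 60 of 8952 tested genes. The replicates of a group were 0.088 log2 units apart with A7 and 0.27 with vehicle, both less than the difference. By estimated fragments, about 98 with A7 and 104 with vehicle, the depth-corrected ratio of A7 to vehicle was 0.569 (exact binomial 95% interval 0.427 to 0.757), an interval that covers counting error only. Without A7 replicate 1 the log2 difference was -0.79. In bulk RNA, fewer cells that express a gene and less RNA per cell cannot be told apart. RefSeq lists AREGB as a synonym of AREG and the tables hold 1 line for the gene. How the authors treated reads that map to more than 1 place is not given in the sources used here.

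TGFA, a close relative of EGF, was the second ligand and lay far below AREG. It had 1.06 and 0.823 scaled FPKM in the A7 libraries, against 1.49 and 2.05 in the vehicle libraries. The groups did not overlap, although the highest A7 value and the lowest vehicle value were closer to each other than the vehicle replicates were. The means were 0.942 ± 0.168 with A7 and 1.77 ± 0.39 with vehicle (SD, n = 2 each), 1.88-fold lower with A7. The log2 difference was -0.51 (SE 0.23, 95% interval -1.08 to 0.066, limma adjusted p = 0.806). About 32 fragments with A7 and 36 with vehicle gave a depth-corrected ratio of 0.537 (counting interval 0.323 to 0.889). Without A7 replicate 1 the log2 difference was -0.60, and without vehicle replicate 2 it was -0.36.

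The motif that makes these proteins EGF-like is a stretch of 6 cysteines with characteristic spacing. It was searched for in every ligand of the family except NRG1, whose spacing is therefore not given. The motif is printed for AREG and TGFA, the ligands that were tested, and for HBEGF, the searched ligand most like AREG in this stretch. It is given as coding sequence from GENCODE 29 transcripts with the 6 cysteine codons in capitals.
AREG: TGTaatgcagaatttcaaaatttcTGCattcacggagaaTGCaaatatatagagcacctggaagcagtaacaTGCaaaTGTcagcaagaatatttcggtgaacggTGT
TGFA: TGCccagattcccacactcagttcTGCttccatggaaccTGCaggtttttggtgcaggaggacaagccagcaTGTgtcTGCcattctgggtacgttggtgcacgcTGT
HBEGF: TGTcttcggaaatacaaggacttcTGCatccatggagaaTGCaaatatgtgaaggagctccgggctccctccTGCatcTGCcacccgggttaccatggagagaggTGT
In each, 36 codons span the motif, with gaps of 7, 4, 10, 1 and 8 codons between neighbouring cysteine codons, and the same spacing was found in BTC and EREG. The gaps of 7, 1 and 8 were set by the search, so only those of 4 and 10 could have differed. Over these 108 bases HBEGF shared 64 with AREG, EREG 55, TGFA 53 and BTC 52. HBEGF rested on about 3 fragments in either group, too few to tell a direction. Likeness in this stretch can therefore not be set against the differences in level.

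The other ligands were near the limit of detection. BTC, betacellulin, had 0.408 and 0.801 scaled FPKM with A7 and 0.371 and 0.759 with vehicle, so that the groups overlapped. It rested on about 13 fragments with A7 and 7 with vehicle, too few to read the likeness of libraries with the same replicate number. HBEGF had 0.301 and 0 with A7 and 0.183 and 0.372 with vehicle, which corresponds to about 3 fragments in either group. EREG, epiregulin, had 0 with A7 in either library, against 0 and 0.070 in the vehicle libraries, where the value above 0 is about 1 fragment. NRG1 was listed at 0 in all 4 libraries. At 3 fragments, NRG1 would have had 0.12 and 0.15 FPKM in the A7 libraries and 0.21 and 0.22 in the vehicle libraries, on a transcript of 5931 bases, so a level up to about these values cannot be told from 0. Of the ligands outside the family list, EGF, EPGN, NRG3 and NRG4 stayed below 0.45 scaled FPKM in every library, and NRG2 was listed at 0 in every library. NRG4 had 0.449 and 0.358 with A7 against 0.163 and 0 with vehicle, higher with A7 without overlap, unlike AREG and TGFA. The groups overlapped for EGF, EPGN and NRG3. All were under the minimum for testing, and their fragments were not estimated.

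AREG and EREG are neighbours on chromosome 4, with EPGN as the coding gene before EREG and BTC as the coding gene after AREG in RefSeq. Of these 4 ligand genes only AREG reached the minimum for testing. The promoters of AREG and EREG are shown because these adjacent, related genes had such different levels. Each sequence runs from 250 bases before to 50 bases after the start in RefSeq (GRCh38.p14, plus strand), at chr4:74444886-74445185 for AREG and chr4:74364895-74365194 for EREG. Capitals mark matches to TGACGTCA (the cyclic AMP response element), TATAAA (the TATA box) and GGTCA or its reverse TGACC (a half-site of the estrogen response element), searched on both strands.
AREG: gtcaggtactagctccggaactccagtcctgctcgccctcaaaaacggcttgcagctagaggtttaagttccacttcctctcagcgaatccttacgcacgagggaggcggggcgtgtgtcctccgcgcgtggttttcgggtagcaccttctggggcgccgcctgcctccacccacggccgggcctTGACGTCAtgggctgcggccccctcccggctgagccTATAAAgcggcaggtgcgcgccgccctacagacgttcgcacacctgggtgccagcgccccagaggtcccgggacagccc
EREG: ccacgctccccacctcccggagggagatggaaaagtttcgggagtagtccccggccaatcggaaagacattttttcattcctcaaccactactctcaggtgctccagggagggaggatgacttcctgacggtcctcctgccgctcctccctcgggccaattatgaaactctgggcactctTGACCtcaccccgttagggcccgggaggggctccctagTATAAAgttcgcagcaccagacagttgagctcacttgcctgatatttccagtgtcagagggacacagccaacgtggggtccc
The AREG window held TGACGTCA from base -65 and TATAAA from base -29, counted from the start. The EREG window held TGACC from base -70 and TATAAA from base -32. The search covered 34796 distinct promoters of the same length, and 1.84% held TGACGTCA, 11.6% held TATAAA in either orientation and 37.3% held the half-site. Promoters of 8 of the 10 genes were in the table, and those of ERBB3 and NRG1 were not and went unsearched. Among the 8, TGFA, ERBB4 and HBEGF also held the half-site, and only AREG held TGACGTCA. A window of EGFR, which was listed at 0 in every library, held TATAAA from bases -146 and -36. A match is a description of the letters and no match says only that these letters are not in the window.

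ERBB3 was the most abundant receptor. It had 20.1 and 18.9 scaled FPKM in the A7 libraries, against 14.2 and 14.7 in the vehicle libraries. Both A7 values lay above both vehicle values, and the gap between the groups was wider than that within either. The means were 19.5 ± 0.8 with A7 and 14.4 ± 0.4 with vehicle (SD, n = 2 each), a ratio of 1.35. The log2 difference was 0.41 (SE 0.14, 95% interval 0.056 to 0.77, limma adjusted p = 0.806, unadjusted p = 0.03005), at rank 313 of 8952. Replicates were 0.084 log2 units apart with A7 and 0.050 with vehicle. ERBB3 rested on the most fragments of the family, about 898 with A7 and 402 with vehicle, and their depth-corrected ratio was 1.35 (counting interval 1.20 to 1.52). Without A7 replicate 1 the difference was 0.37.

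ERBB2, the partner receptor without a ligand, was the second receptor by level and lay far below ERBB3. It had 2.17 and 1.57 scaled FPKM in the A7 libraries, against 0.635 and 1.28 in the vehicle libraries. The groups did not overlap, but the vehicle replicates were 0.48 log2 units apart, which is close to the difference between the groups. The means were 1.87 ± 0.42 with A7 and 0.959 ± 0.458 with vehicle (SD, n = 2 each), and the log2 difference was 0.56 (SE 0.27, 95% interval -0.095 to 1.22, limma adjusted p = 0.806). About 71 fragments with A7 and 22 with vehicle gave a depth-corrected ratio of 1.95 (counting interval 1.19 to 3.30). Without A7 replicate 1 the log2 difference was 0.42, and without vehicle replicate 1 it was 0.32. Genes next to ERBB2 on chromosome 17 that are amplified with it in HER2-positive tumours were low, apart from MIEN1. STARD3 had 0.104 and 0.130 with A7 and 0 in both vehicle libraries. GRB7 had 0.289 and 0 with A7 and 0 in both vehicle libraries. PGAP3 had 0 and 0.250 with A7 against 0 and 0.372 with vehicle, so its groups overlapped. IKZF3 had 0.405 and 0.323 with A7 against 0.655 and 0.457 with vehicle. These genes were under the minimum for testing, and their fragments were not estimated. Since the A7 libraries were deeper than the vehicle libraries, no direction is read from values this low. MIEN1, another neighbour, was well detected and had 22.4 and 25.2 with A7 against 33.0 and 34.6 with vehicle (log2 difference -0.49, SE 0.14, limma adjusted p = 0.806), a difference of the opposite sign to that of ERBB2.

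ERBB4 was under the minimum for testing. It had 0.528 and 0.585 scaled FPKM with A7 and 0.410 and 0.362 with vehicle, so the groups did not overlap. From about 52 fragments with A7 and 22 with vehicle, the depth-corrected ratio was 1.43 (counting interval 0.852 to 2.47), an interval that includes 1. EGFR, the receptor to which AREG and TGFA bind, was listed at 0 in all 4 libraries. On a transcript of 9821 bases, 3 fragments would have given 0.07 and 0.091 FPKM in the A7 libraries and 0.13 FPKM in each vehicle library, so a level up to about these values cannot be told from 0.

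**Figure D1:**
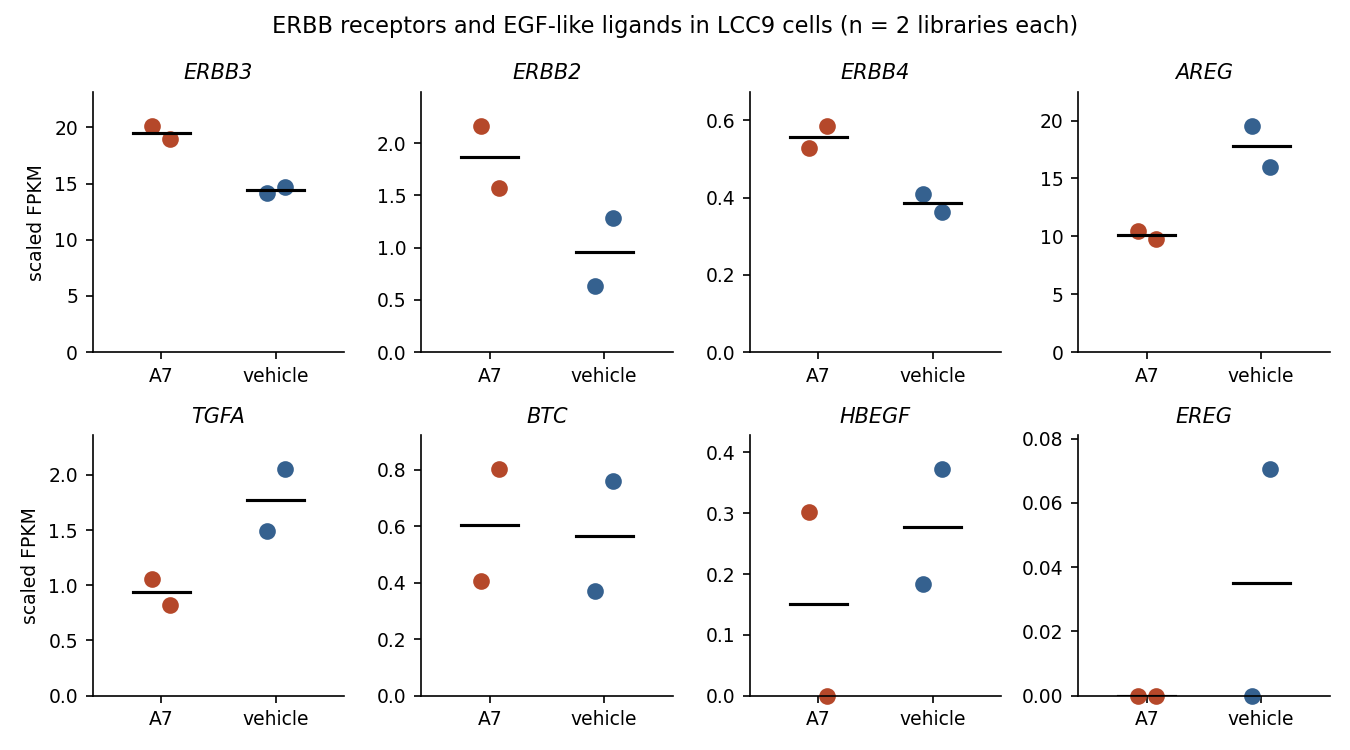
Scaled FPKM (vertical axis, from 0, a separate scale per gene) of the 8 family genes listed above 0 in at least 1 library, in the A7 and vehicle libraries. Points are libraries and the line is the mean of 2. Points of ERBB3, ERBB2 and ERBB4 lie higher and points of AREG and TGFA lower in A7 libraries without overlap, whereas BTC, HBEGF and EREG overlap.

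The order of the genes by level differed between the groups at the top. With A7 ERBB3 came first at 19.5, followed by AREG at 10.1, ERBB2 at 1.87 and TGFA at 0.942 scaled FPKM. With vehicle AREG came first at 17.8, followed by ERBB3 at 14.4, TGFA at 1.77 and ERBB2 at 0.959. In each A7 library ERBB3 was above AREG, and in each vehicle library AREG was above ERBB3. Below these, BTC averaged 0.605 ± 0.278 with A7 and 0.565 ± 0.274 with vehicle, and it could not be ordered against ERBB4 at 0.557 ± 0.040 and 0.386 ± 0.034 beyond the spread of its replicates. In each library ERBB3 was above between 88.7% and 91.1% of all listed genes, and AREG above between 86.1% and 90.8%.

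Since a ratio of 2 genes within a library does not depend on the scaling between libraries, the ratio of AREG to ERBB3 was also taken, a choice made after their values were seen. It was 0.520 and 0.518 in the A7 libraries, against 1.38 and 1.09 in the vehicle libraries. The A7 libraries were nearly equal, and both lay below both vehicle libraries. An exact permutation test of 2 against 2 libraries cannot go below a two-sided p of 0.333, so no p is given for this ratio. The summed receptors had 22.8 and 21.1 scaled FPKM with A7, against 15.2 and 16.3 with vehicle, and the summed ligands 12.2 and 11.4 with A7, against 21.6 and 19.2 with vehicle. ERBB3 and AREG formed most of either sum in every library. ERBB3 made up 88.2% and 89.8% of the receptor sum with A7, against 93.1% and 89.9% with vehicle. AREG made up 85.5% and 85.8% of the ligand sum with A7, against 90.5% and 83.1% with vehicle. The smaller shares varied more in proportion. ERBB2 made up 9.49% and 7.45% of the receptor sum with A7, against 4.17% and 7.85% with vehicle. TGFA made up 8.67% and 7.21% of the ligand sum with A7, against 6.91% and 10.7% with vehicle.

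**Figure D2:**
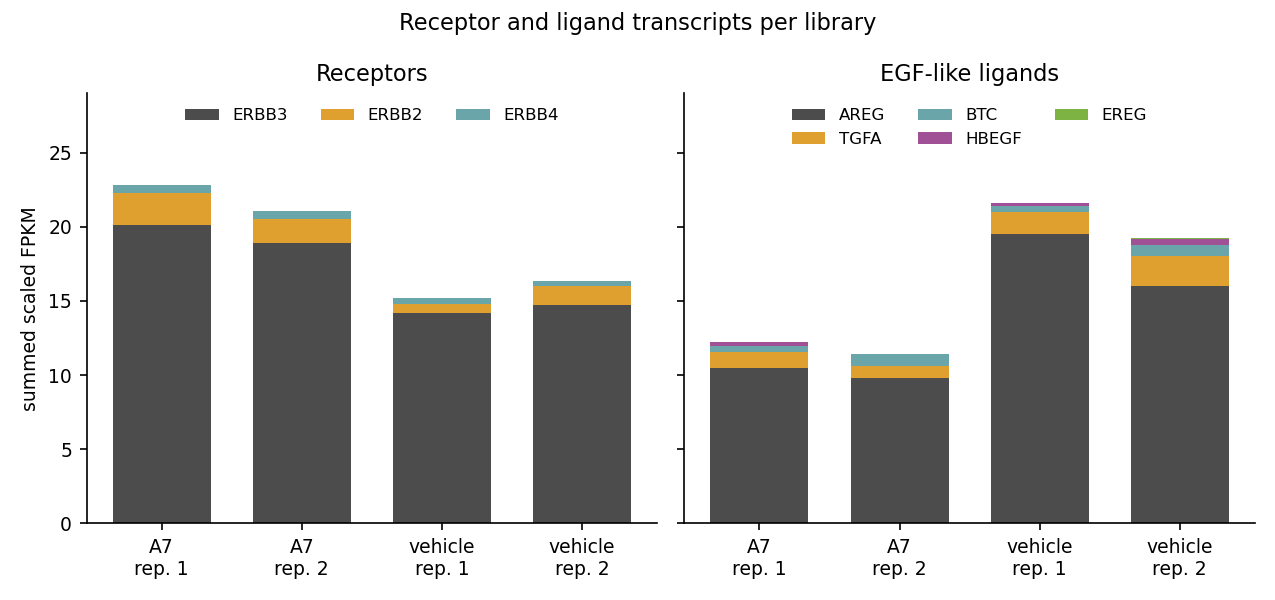
Summed scaled FPKM (vertical axis) of the receptors (left) and EGF-like ligands (right) in each library, stacked by gene, with A7 libraries left of vehicle libraries. ERBB3 and AREG form most of each bar, receptor bars stand between 15.2 and 22.8 and ligand bars between 11.4 and 21.6.

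The genes whose 4 values were most like those of AREG were looked up among 4809 tested genes whose FPKM averaged at least 5. Likeness was the Euclidean distance between centred log2 profiles over 4 libraries, which was 0.793 for the median candidate. The nearest were HSPB8 at 0.119, GREB1 at 0.140, SIAH2 at 0.154, GADD45GIP1 at 0.167 and PRSS23 at 0.180. HSPB8, a small heat shock protein gene, had 16.1 and 15.2 scaled FPKM with A7 against 26.8 and 23.3 with vehicle. GREB1, a gene known to be induced by estrogen, had 83.9 and 83.3 with A7 against 142 and 132 with vehicle. SIAH2, a ubiquitin ligase gene, had 10.5 and 9.73 with A7 against 18.3 and 13.9 with vehicle. None of these 5 genes passed limma's test (adjusted p between 0.438 and 0.806). Their lower values with A7 follow from their choice by likeness to AREG.

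Genes that release the ligands showed no common direction. Of 9 listed genes 4 were tested. With A7 the mean was higher for 3 and lower for 1, and none passed in either direction. The median of the list was 0.041, and -0.062 when A7 replicate 1 was left out. ADAM17, the main protease that frees AREG and TGFA, averaged 12.2 ± 1.4 scaled FPKM with A7 and 9.56 ± 0.18 with vehicle (log2 difference 0.32, SE 0.16, limma adjusted p = 0.806). ADAM10, which cuts other EGF-like precursors such as that of BTC, averaged 2.57 ± 0.30 with A7 and 3.36 ± 0.04 with vehicle (log2 difference -0.29, SE 0.19). RHBDF1, a partner of ADAM17, and the protease gene ADAM9 had log2 differences of 0.079 and 0.0030, both within their SE of 0 and of either sign under other settings.

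Genes of the signalling steps behind the receptors mostly had slightly higher means with A7, and none passed. Over all tested genes, the mean with A7 was higher for 4447 and lower for 4505, and the log2 differences had a median of -0.0019 and quartiles of -0.16 and 0.17. Of 11 tested adaptors 9 had a higher mean with A7 (median 0.085). SOS2, an activator of RAS, had a log2 difference of 0.30 (SE 0.21), the adaptor CRKL one of -0.26 (SE 0.21, but -0.0028 without vehicle replicate 2), CRK 0.14 and PLCG1, a phospholipase recruited by EGFR, 0.13 (0.080 without vehicle replicate 1). Without vehicle replicate 2 the median of the adaptors was 0.050. All 9 tested genes of the RAS-ERK cascade had a higher mean with A7 (median 0.26). For only 1 of the 9 did the groups not overlap, against 36.9% of all tested genes in either direction. ARAF, with 1.45 and 2.71 scaled FPKM with A7 against 1.81 and 0.627 with vehicle, and MAP2K1, with 4.12 and 2.42 with A7 against 3.02 and 1.41 with vehicle, overlapped between groups. Their log2 differences were 0.50 (SE 0.35) for ARAF and 0.43 (SE 0.33) for MAP2K1, and without vehicle replicate 2 they were 0.11 and 0.064. MAP2K2 had a log2 difference of 0.30 (SE 0.27), which was 0.068 without A7 replicate 2 and 0.15 without vehicle replicate 1. The median of this list was 0.17 without A7 replicate 1 and 0.11 without vehicle replicate 2.

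Of 11 tested genes of the PI3K-AKT arm, the branch that ERBB3 feeds, 7 had a higher mean with A7 (median 0.14). Groups did not overlap for 4 of the 11, all with A7 higher. Over all tested genes this held for 36.9% in either direction, near the share of this list, and for 18.3% with A7 higher. PIK3R1, a regulatory subunit of PI3K, had 3.08 and 2.94 scaled FPKM with A7 against 2.26 and 1.85 with vehicle (log2 difference 0.40, SE 0.20, limma adjusted p = 0.806). PIK3R3, another regulatory subunit, had 8.63 and 9.31 with A7 against 7.72 and 6.82 with vehicle (0.27, SE 0.16). TSC1, a brake on mTOR, had a log2 difference of 0.25 (SE 0.23, and 0.16 without A7 replicate 2 or without vehicle replicate 1) and AKT1 one of 0.38 (SE 0.39), which turned to -0.18 without A7 replicate 1. The median of the list was 0.24 without vehicle replicate 1 and 0.030 without vehicle replicate 2.

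Inhibitors of the receptors and genes of their turnover had means in both directions. Of 9 tested genes 6 had a higher mean with A7 (median 0.11) and none passed. For 4 of the 9 the groups did not overlap, all with A7 higher. Over all tested genes this held for 36.9% in either direction and for 18.3% with A7 higher. The ubiquitin ligase gene STUB1 had a log2 difference of -0.37 (SE 0.27), but its A7 values of 11.1 and 6.22 scaled FPKM overlapped with the vehicle values of 11.4 and 10.8, and without A7 replicate 2 the difference was 0.0043. CBLB, a ubiquitin ligase for EGFR, had a difference of 0.34 (SE 0.25), which was 0.13 without vehicle replicate 2 and 0.55 without vehicle replicate 1. ERRFI1, which blocks ERBB kinases, had one of 0.25 (SE 0.23), which was 0.10 without A7 replicate 1 and 0.41 without A7 replicate 2. USP8, a deubiquitinase of sorted receptors, had one of 0.13 (SE 0.15), which was 0.086 without A7 replicate 2. The median of the list was 0.16 without A7 replicate 1. Of 4 tested inhibitors of RAS-ERK signalling, NF1, which turns RAS off, had the smallest p, with 1.31 and 1.40 scaled FPKM with A7 against 0.636 and 0.928 with vehicle (log2 difference 0.41, SE 0.23, limma adjusted p = 0.806). DUSP5, SPRED2 and RASA1 lay within 0.13 of 0. The other 6 listed inhibitors, SPRY1, SPRY2, SPRY4, SPRED1, DUSP4 and DUSP6, were under the minimum.

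Among genes known to respond to ERK activity, 7 of 14 listed were tested, and the mean with A7 was higher for 4 and lower for 3 (median 0.28). For 3 of the 7 the groups did not overlap, all with A7 higher. Over all tested genes this held for 36.9% in either direction and for 18.3% with A7 higher. None passed. MCL1, a survival gene of the BCL2 family, had 17.2 and 16.1 scaled FPKM with A7 against 11.6 and 10.7 with vehicle (log2 difference 0.54, SE 0.15, limma adjusted p = 0.806, unadjusted p = 0.0125). IER3 had 28.7 and 18.2 with A7 against 16.7 and 10.1 with vehicle (0.77, SE 0.30, limma adjusted p = 0.806), and its replicates were far apart in both groups. Its difference was 0.45 without A7 replicate 1 and 0.43 without vehicle replicate 2. EGR1 had 16.9 and 17.1 with A7 against 13.3 and 14.4 with vehicle (0.28, SE 0.15). IER2 had 8.14 and 3.74 with A7 against 3.93 and 4.00 with vehicle, so its higher mean came from A7 replicate 1, and without that library its difference was -0.066 and the median of the list -0.066.

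**Figure D3:**
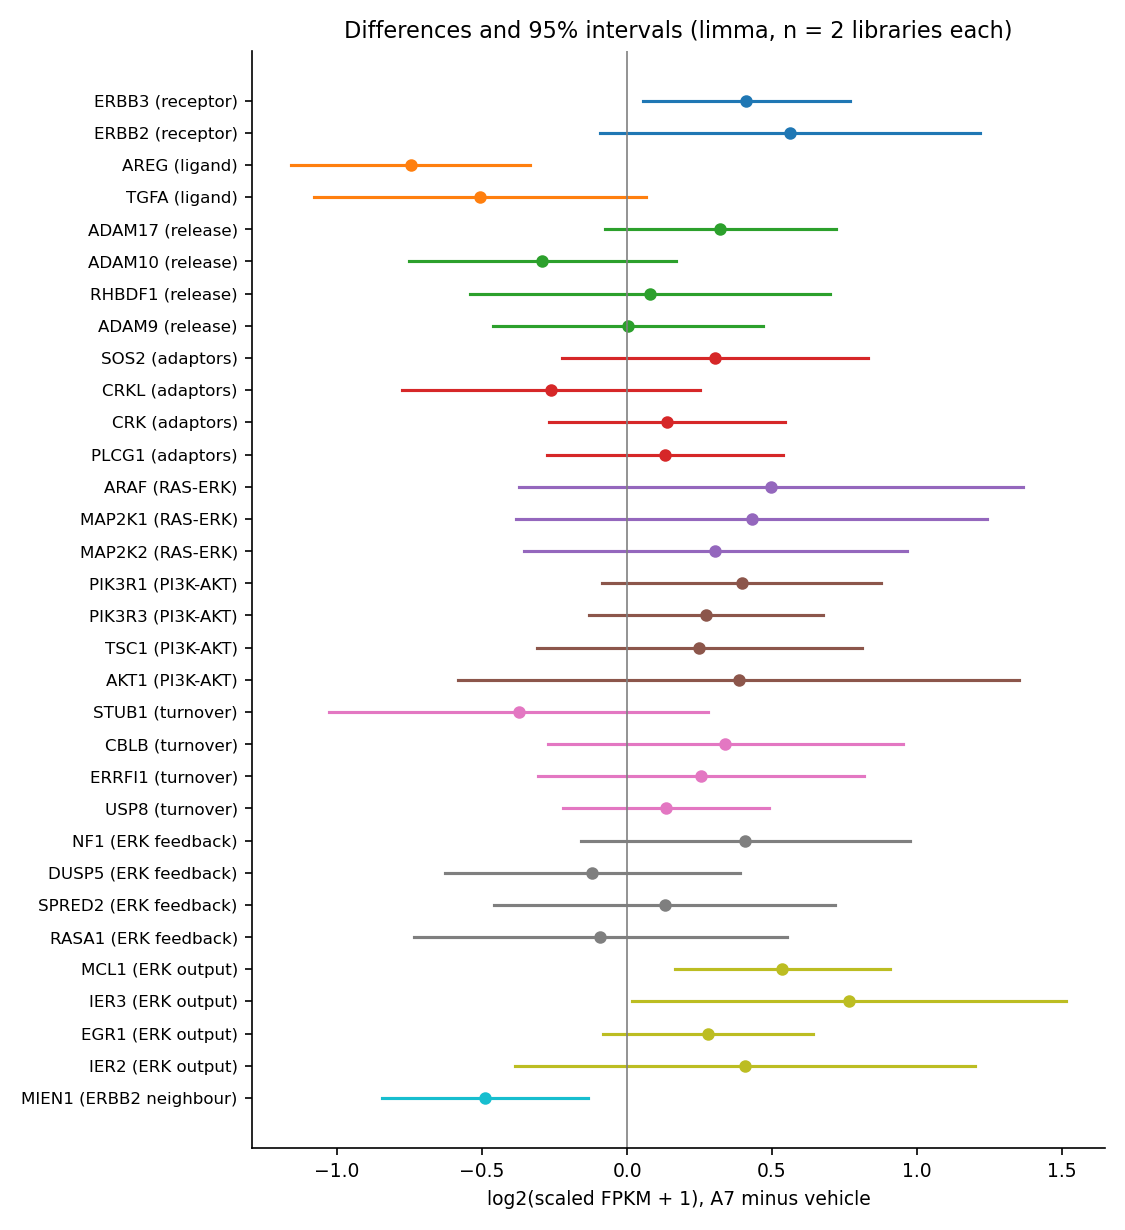
Difference in log2(scaled FPKM + 1), A7 minus vehicle, with 95% intervals from limma (2 libraries per group), for the 4 tested family genes and 28 pathway genes named by rule, coloured by list. The intervals of ERBB3, AREG, MCL1, IER3 and MIEN1 lie off 0, before any adjustment for the number of genes.

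**Figure D4:**
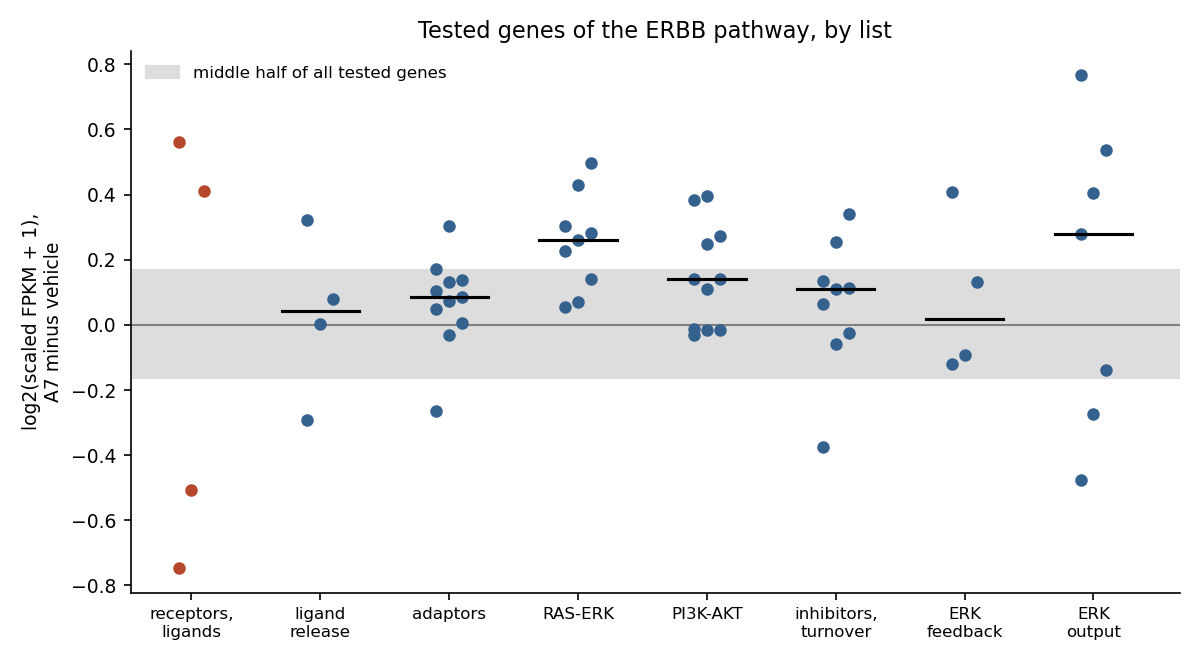
Difference in log2(scaled FPKM + 1), A7 minus vehicle, of each tested gene (points) by list, with the list's median as a line for the pathway lists. The grey band spans the quartiles of all 8952 tested genes, from -0.16 to 0.17, and the 4 family genes on the left lie outside it on both sides.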

How the data were processed

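RNA of 2 A7 and 2 vehicle samples of LCC9 cells was reverse-transcribed with the SMARTer PCR system and made into fragment libraries by PCR, per the labels' protocols, which name no strand-marking step. The authors deposited 1 table per library with gene symbols and FPKM, per the file headers. CASAVA 1.8.2, TopHat, Cufflinks 2.2.1 and GRCh37 are listed, with no role, per the submitters' processing notes. The annotation is not given in the sources used here. Of 23619 lines, 14 had a whole number as symbol and were left out.

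Each library's FPKM were divided by its median-of-ratios factor (0.9899 and 1.02 for A7, 1.002 and 1.014 for vehicle). Genes averaging at least 1 FPKM were tested on log2(scaled FPKM + 1) with limma 3.58.1 (trend) in R 4.3.3, two-sided, with Benjamini-Hochberg adjustment over 8952 genes at 0.05. The added 1 makes changes of low genes look smaller than they are. The model had 2 residual and 3.89 prior degrees of freedom. It was tested on simulated data. In 20 simulations it recovered 9.35% of 2-fold and 79.9% of 4-fold changes in scaled FPKM + 1, and 5.13% of calls were false. The changes were placed only in genes at levels above those of TGFA and ERBB2. A gene that did not pass may therefore still differ. Depth came from the steps of low FPKM and GENCODE 29 transcript lengths, so fragment numbers are approximate. Their intervals cover counting error only, since PCR reads without molecular identifiers are not independent molecules.

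The members and lists were chosen with earlier results of these data known. All 10 members are named, and of each further list the 4 tested genes with the smallest p, except 1 that is not reported here. Values given for members of lists that were not tested, and the ratio of AREG to ERBB3, were chosen after their values were seen. Alternatives were other pseudocounts, filters and scalings, no trend, a replicate block and leaving out each library.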

Additional observations from a re-analysis of the deposited data

How the results depend on the processing

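The directions of AREG, TGFA, ERBB3 and ERBB2 were the same under all 13 alternatives, of which 12 were planned and 1 (no filter, with genes at 0 in every library left out) was chosen after seeing the data. AREG lay between -0.88 and -0.53, TGFA between -0.90 and -0.34, ERBB3 between 0.37 and 0.61 and ERBB2 between 0.32 and 1.02. None of them passed limma's adjusted threshold under any alternative (lowest adjusted p of 0.437, 0.556, 0.398 and 0.535). Rescaling to TPM moved the median of all genes to 0.17, and relative to it AREG stood at -0.70 and ERBB3 at 0.44.

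Over all genes, limma called 1 gene higher and 1 lower. With no filter it called 4 higher and 41 lower, and 0 and 0 once genes at 0 in every library were left out. Lower calls were 0 with a pseudocount of 0.1 or 0.01 and 2 with TPM or quantile normalization, and higher calls were 0 without the variance trend. With the replicate number as a block there were 0 higher and 0 lower calls. Same-numbered libraries deviated together only weakly (correlation 0.0906 across genes), and the labels name no pairing. Leaving out 1 library gave 0 to 10 higher and 0 to 7 lower calls, where the lone sample is assumed to vary like the other group. Without adjustment, 198 genes passed 0.05 with A7 higher and 318 with A7 lower, against 716 and 96 with TPM.

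Of the 28 named pathway genes 19 kept their sign under every alternative that gave a value, which was 12 of 13 for NF1 (under the minimum without A7 replicate 2) and 13 for the others. Leaving out 1 library gave ARAF 0.11 to 0.89, MAP2K1 0.064 to 0.80, MAP2K2 0.068 to 0.55, IER3 0.43 to 1.10 and CRKL -0.52 to -0.0028. ADAM9 turned negative with FPKM as deposited (-0.0011) and quantile normalization (-0.030), and DUSP5 (0.027) and RASA1 (0.053) turned positive with TPM. Leaving out 1 library gave ADAM9 -0.12 to 0.13, AKT1 -0.18 to 0.95, CRK -0.016 to 0.29, IER2 -0.066 to 0.88, RASA1 -0.36 to 0.18, RHBDF1 -0.15 to 0.31, SPRED2 -0.029 to 0.29 and STUB1 -0.75 to 0.0043. Leaving out 1 library, the median of the ERK feedback list lay between -0.023 and 0.23. The causes of these changes were not tested. BTC, HBEGF, EREG, NRG1 and EGFR rested on about 20 fragments or fewer over the 4 libraries, too few to tell a direction. Whether shallow depth or lack of the transcript lies behind this was not tested.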
